A study of Mus musculus with 15 samples.

Results

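Livers of 3 mice that carried the wild type human alpha1-antitrypsin gene in its switched-on state (M4) were compared with livers of 3 littermates that carried no transgene (WT). These are 6 of the 15 arrays of the series, chosen by their titles, with 1 array per mouse and 3 biological replicates per group. M4 mice had a transgene for the M form of the protein, with inducible expression restricted to hepatocytes, and received no doxycycline, so that it was on by design. The other groups, also of 3, serve here as side comparisons. Z4 mice carried the mutant Z form and received no doxycycline, so that it too was on. M1 mice carried the M form and Z1 mice the Z form, and both were given water with 40 µg doxycycline per mL starting at conception, which kept the transgene off. WT littermates received no doxycycline. All mice were 3 months old and labelled male. The promoter that drives the switch, the strain and the litters are not given in the sources used here. No probe set for the human transgene was used, and its expression in M4 livers was therefore not checked here.

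Alpha1-antitrypsin is a serpin, a protease inhibitor of blood plasma that hepatocytes make in large amounts, fold and glycosylate in the endoplasmic reticulum (ER) and secrete. The M form is the common one and leaves the cell, whereas the Z form misfolds and is retained in the ER. ER chaperones such as Hspa5 are induced by the unfolded protein response when misfolded protein builds up. Adult liver also differs between the sexes, since male and female patterns of growth hormone secretion set the expression of many cytochrome P450, sulfotransferase and major urinary protein genes.

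The values are linear signals of Affymetrix probe sets. Differences were taken on the scale log2(signal + 16), which understates changes of dim genes, for 12393 genes with 1 probe set each. A gene was called where the adjusted p of limma was under 0.05, in a fit of all 5 groups. The number of arrays limits the precision.

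The 3 M4 arrays differed from each other in Xist and shared low signals of Y-linked genes, although all mice were labelled male. Xist, the RNA that coats the inactive X chromosome of female cells, had signals of 1149.2, 226 and 32.6 on M4 replicates 1, 2 and 3, against 35.9, 32.5 and 69.4 on the WT arrays. It ranged from 13.7 to 74.3 over the 12 arrays of the other 4 groups, so that M4 replicates 1 and 2 lay above all of them and M4 replicate 3 lay among them. The Y-linked translation factor gene Eif2s3y had signals of 0.4, 1.3 and 42.1 on the M4 arrays, against 237.3, 247.3 and 194.6 on the WT arrays (log2 difference -3.24, SE 0.38, adjusted p = 1.93e-04). Its lowest signal over the 12 other arrays was 105.3. The Y-linked histone demethylase genes Kdm5d and Uty were also lower on all 3 M4 arrays (log2 differences -1.45 and -1.23). The other Uty probe set was lower too, at 27.4, 14.3 and 20.7 against 35.5, 41 and 41.5 in WT. The other Kdm5d probe sets overlapped with WT. They had 27.8, 14.9 and 27.6 in M4 against 24.6, 16.7 and 37.4, and 4.5, 3.3 and 2.2 against 5.7, 3.7 and 5.1. By these genes M4 replicates 1 and 2 went against their label. M4 replicate 3 had Xist at the WT level and low Y-linked signals on the probe sets used. Its Eif2s3y, Kdm5d and Uty were 42.1, 23.2 and 8.5, against lowest signals of 105.3, 43.6 and 22.8 over the 12 other arrays. Signals of many genes are therefore given per array, and some results also with M4 replicate 3 alone or M4 replicate 1 alone.

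Control probe sets also set the M4 arrays apart from WT. The median signal of 27 probe sets for poly-A RNAs, which are added before labelling, was 3.7, 5.2 and 3.7 on the M4 arrays, against 33.8, 37.6 and 35.5 on the WT arrays. For 18S ribosomal RNA, the control probe set at the 5' end gave 2680.7, 1830 and 2208.4 on the M4 arrays, against 226.5, 285.8 and 75 on the WT arrays. Among measures of RNA quality, signal at the 3' end over that at the 5' end came to 1.29 to 1.61 in M4 and 2.34 to 2.46 in WT for actin, and 0.838 to 0.923 in M4 and 1.05 to 1.11 in WT for Gapdh. Hybridization controls had medians of 250.55 to 287.75 in M4 and 487.8 to 522.8 in WT. Z4 arrays were like M4 in the poly-A and 18S controls, at 2 to 2.3 and at 1879.9 to 2666. M1 arrays were apart from M4 in the same direction as WT, at 42.6 to 57.9 and at 154.4 to 442. Z1 arrays were too, at 45.9 to 48.3 and at 165.6 to 568.1. The sources used here name no processing batch. The controls cannot be told apart from the genotype between M4 and WT, nor from the transgene state and doxycycline between M4 and M1. Their part in the results below was not tested. Across genes, M4 arrays correlated with each other at 0.942 to 0.969 and WT arrays at 0.968 to 0.973 (Pearson, log2 scale, genes not being independent). M4 replicate 1 correlated with the Z4 arrays at 0.964 to 0.965, above its 0.956 and 0.942 with M4 replicates 2 and 3, and with the WT arrays at 0.941 to 0.942.

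**Figure D1:**
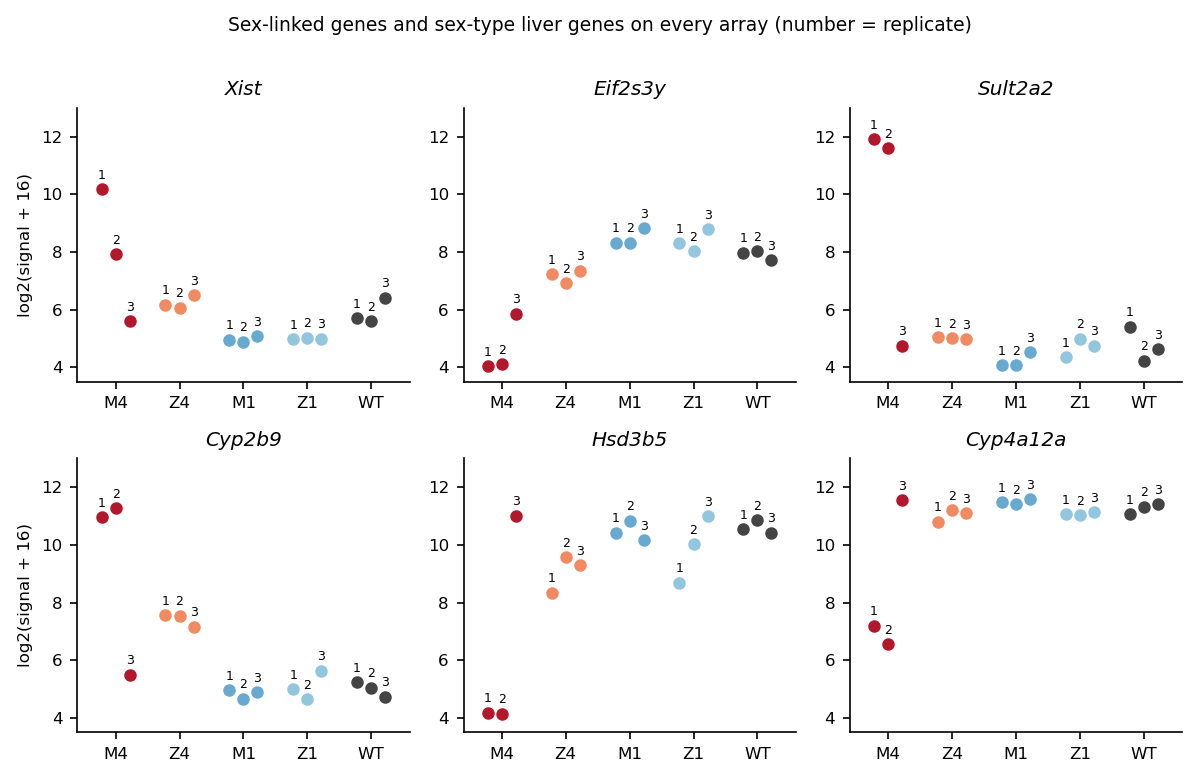
Signals of 6 genes on all 15 arrays, as log2(signal + 16) on the vertical axis, with the groups M4, Z4, M1, Z1 and WT from left to right and a number for the replicate beside each point. M4 replicates 1 and 2 stand outside the range of M4 replicate 3 and the 12 other arrays in all 6 genes, and M4 replicate 3 lies at or near the WT arrays in all but Eif2s3y.

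Of 12393 genes, 2987 were called, which is 24.1% of those tested. Of these, 1812 (14.6%) were higher and 1175 (9.48%) were lower in M4 livers, and 4620 had an unadjusted p under 0.05. Differences beyond 1 log2 unit numbered 354 among the higher and 391 among the lower genes. The median difference over all genes was 0.08. Without M4 replicate 2 the total fell to 1935 called genes, with 1188 higher and 747 lower. In a fit of M4 and WT alone it fell to 937, with 629 higher and 308 lower. With M4 replicate 3 as the only M4 array, 946 genes (7.63%) were called higher and 1122 (9.05%) lower. With M4 replicate 1 as the only M4 array, 750 (6.05%) were called higher and 429 (3.46%) lower. In these fits the lone array takes the spread of the other groups.

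The 3 M4 arrays all lay above the 3 WT arrays in 2737 genes and all lay below them in 1513, together 34.3% of genes. Among called genes, 1754 had M4 values within 0.5 log2 units of each other, 1268 of them higher and 486 lower than in WT. At the other end, M4 values spread over more than 2 log2 units in 179 genes, against 36 in Z4, 39 in M1, 50 in Z1 and 31 in WT. Large falls were unevenly shared. M4 replicates 2 and 3 had 131 and 129 genes more than 2 log2 units below the WT mean, and M4 replicate 1 had 20. Replicates 2 and 3 shared 96 of those genes, 73.3% of the first list and 74.4% of the second, and 75 of the 96 were within 1 log2 unit of the WT mean, or above it, on replicate 1. Genes more than 2 log2 units above the WT mean numbered 35, 40 and 15 on replicates 1, 2 and 3, more than the large falls on replicate 1 and fewer on replicates 2 and 3.

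**Figure D2:**
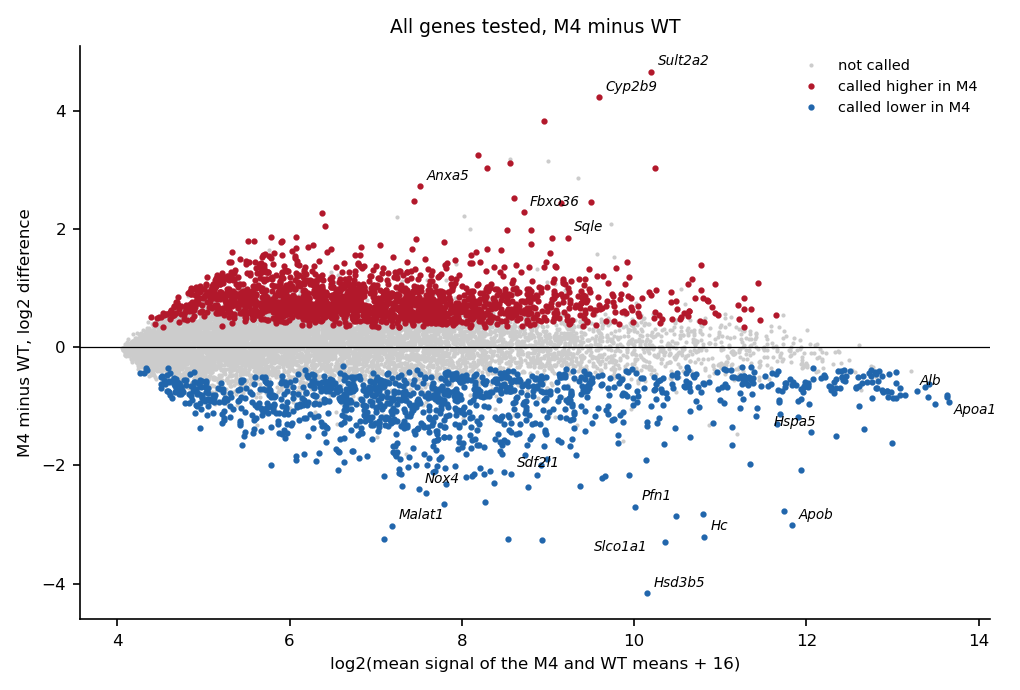
Log2 difference of M4 minus WT (vertical axis) against log2 of the mean signal plus 16 (horizontal axis) for all 12393 genes, with 1812 called higher in red and 1175 called lower in blue. Sult2a2 and Cyp2b9 have the largest rises among the labelled genes and Hsd3b5 the largest fall, and the brightest genes, at the right, lie below 0.

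Some rises were alike on all 3 M4 arrays. Those of Anxa5, Inpp5j and Cplx2, given last here, were large but differed more between the M4 arrays. Fbxo36, which encodes an F-box protein of the kind that marks proteins for ubiquitination, had signals of 592.9, 666.5 and 787.5 in M4 livers, against 103, 129.6 and 149 in WT livers (log2 difference 2.29, SE 0.19, adjusted p = 9.16e-05). G3bp2, a stress granule protein, had 502.3, 463.1 and 418.8 in M4, against 131.1, 146.8 and 124.5 in WT (log2 difference 1.67, SE 0.16, adjusted p = 9.16e-05), though 1 of its 2 other probe sets was called lower. Fpgs, the enzyme that adds glutamate residues to folates, had 891.6, 687.8 and 724.3 in M4, against 243.8, 206.6 and 284 in WT (1.59). In these genes the lowest M4 array lay above the highest WT array. They passed with M4 replicate 3 alone and with M4 replicate 1 alone, at adjusted p of 0.00215 or less. The transporter genes Abcb8, of mitochondria, and Abcc5, an exporter of organic anions, rose by 1.61 and 1.66, and the nonclassical class I gene H2-T3 rose by 1.56. Abcc5 was not called with M4 replicate 3 alone (adjusted p = 0.056) or M4 replicate 1 alone (0.0887). Anxa5, a calcium-dependent phospholipid-binding protein, had 332.1, 366.1 and 207.7 in M4 livers, against 39.4, 39.6 and 17.1 in WT livers (2.73, adjusted p = 6.45e-04). Inpp5j, an inositol polyphosphate phosphatase, had 372.7, 762.7 and 795.5 in M4, against 37.5, 132.3 and 147.9 in WT (2.52, adjusted p = 9.47e-04, but 0.0506 with replicate 1 alone). Cplx2, a regulator of vesicle fusion best known in neurons, had 139, 64.7 and 165.2 in M4, against 9.5, 10.4 and 13.6 in WT (2.28). The groups did not overlap in any of these genes.

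The falls that were alike on all 3 M4 arrays were led by Pfn1. Pfn1 encodes profilin, which supplies actin monomers to growing filaments. Pfn1 had signals of 222.6, 316.6 and 246.9 in M4 livers, against 1903.4, 1739.7 and 1665.1 in WT livers (log2 difference -2.69, SE 0.24, adjusted p = 9.16e-05). Nox4, an oxidase that produces hydrogen peroxide, had 38, 40.1 and 45.3 in M4, against 316.9, 321.3 and 227 in WT (-2.40, SE 0.28, adjusted p = 2.06e-04). Ggact, a cyclotransferase acting on gamma-glutamylamines, had 53, 48.8 and 73.9 in M4, against 265.7, 482.9 and 336 in WT (-2.31). Each M4 array lay below each WT array in these 3 genes. Ndufa4, a protein of respiratory complex IV, had 1173.3, 1209.1 and 1383.6 in M4, against 3085.8, 3221.4 and 3369.8 in WT (-1.35, adjusted p = 1.12e-04). Tpmt, which methylates thiopurines, fell by 1.36 and the acute phase protein gene Saa2 fell by 1.59, Saa2 with WT values that spread from 179.6 to 475.3. The call of Saa2 was lost without WT replicate 1 (adjusted p = 0.07) and with any 1 M4 array alone (0.103 to 0.154). Pfn1 was also low in Z4, at a mean of 232, whereas Nox4 was at 272 there and differed from M4 (log2 difference of M4 minus Z4 -2.30, adjusted p = 0.00145). The comparison with Z4 uses the same M4 arrays.

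Genes with sex-dependent expression in mouse liver gave the largest rises, and these rested on M4 replicates 1 and 2. Of 27 measured genes known to be higher in female mouse liver, 14 rose and 0 fell in M4, with a median difference of 1.28, beside 14.6% and 9.48% of all genes called higher and lower and a median of 0.08 over all genes. In a fit of M4 and WT alone 3 of the 27 were higher, and Sult2a2, Cyp2b9 and Cyp2b13 were not called (adjusted p = 0.135, 0.104 and 0.113). The sulfotransferase gene Sult2a2 had signals of 3836.3, 3080.4 and 11.1 in M4 livers, against 26.6, 2.9 and 8.7 in WT livers (log2 difference 4.66, SE 1.28, adjusted p = 0.0178). The cytochrome P450 gene Cyp2b9 (log2 difference 4.24, SE 1.03, adjusted p = 0.01) had 1984.2, 2470.3 and 29.1 in M4, against 22, 17.1 and 10.6 in WT, and its neighbour in the family Cyp2b13 had 1471.3, 1333.3 and 20.9 against 5.2, 19.4 and 18.4. In these genes 2 of the 3 M4 arrays were very high and M4 replicate 3 was at or near the WT level. Sult3a1, another sulfotransferase, had 1933.4, 209.5 and 3.4 in M4, against 5.2, 12.7 and 5.3 in WT. Hao2, a peroxisomal hydroxyacid oxidase, had 1042.5, 587 and 1.4, against 8.5, 8.5 and 5.4. Cyp17a1, a steroid hydroxylase, had 247.9, 1832.3 and 26.7, against 4.9, 7.9 and 40, and was not called (adjusted p = 0.0666). Replicate 1 was the higher of the pair in the first 2 of these genes, and replicate 2 in Cyp17a1.

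The 27 male-type genes moved the other way, with 12 lower and 1 higher in M4 livers and a median difference of -1.17, and 4 were lower in a fit of M4 and WT alone. Hsd3b5, a steroid dehydrogenase of male mouse liver, had signals of 2.1, 1.8 and 2062.4 in M4 livers, against 1483.8, 1834 and 1356.1 in WT livers (log2 difference -4.16, SE 1.30, adjusted p = 0.033). Cyp4a12a, a fatty acid hydroxylase of male liver, had 131, 78.5 and 3004.4 in M4, against 2134.1, 2543.9 and 2716.8 in WT, and Cyp2d9 had 436.2, 181.4 and 4512.1, against 6328.5, 4139.6 and 4802.2. In all 3 genes M4 replicate 3 was at the WT level. With M4 replicate 3 as the only M4 array, 0 of the 27 female-type genes were called in either direction (median 0.05), and of the male-type genes 7 were lower and 3 higher (median 0.21). With M4 replicate 1 as the only M4 array, 19 female-type genes were called higher and 17 male-type genes lower. Among the male-type genes that were also low on M4 replicate 3, the bile acid and organic anion transporter gene Slco1a1 had 399, 40.8 and 509.3 in M4, against 2486.8, 2166.3 and 2151.4 in WT (-3.30, SE 0.57, adjusted p = 0.00164). Mup3, a major urinary protein, had 1729.8, 646.7 and 2586 in M4, against 6848.9, 5212.8 and 6328.2 in WT (-2.08). Gstp1, a glutathione transferase, had 3188.7, 2668.7 and 6834.5, against 12317.5, 10462.9 and 13264.1 (-1.62). For these 3 genes no M4 array reached the WT range, and M4 replicate 3 was the highest of the M4 arrays. Of the female-type genes, the P450 gene Cyp2c38 was higher on all M4 arrays, at 1474.2, 1423.2 and 716.6, against 116.3, 285.6 and 218.5 in WT (2.46, adjusted p = 0.00162).

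A further set of genes was low on M4 replicates 2 and 3 and less so, or not at all, on replicate 1. Malat1, a long noncoding RNA held in the nucleus, had signals of 73.7, 0.4 and 2.9 in M4 livers, against 167, 272.1 and 263 in WT livers (log2 difference -3.02, SE 0.53, adjusted p = 0.00183). Neat1, the RNA scaffold of nuclear paraspeckles, had 483.2, 3 and 2.9 in M4, against 300.3, 656.8 and 690.2 in WT, so that replicate 1 lay inside the WT range. Tmed5, a cargo receptor between ER and Golgi, had 364.7, 25.5 and 24.4 in M4, against 876.6, 762.9 and 788.1 in WT (-3.26). Replicates 2 and 3 were alike in these genes, and replicate 1 stood between them and WT in Malat1 and Tmed5. Apob, the large structural protein of very low density lipoprotein, had 1622.3, 571.8 and 482.2 in M4, against 5451.4, 8129.1 and 5548 in WT (-3.00, SE 0.36, adjusted p = 2.21e-04). Hc, complement component 5, had 756.8, 195.4 and 230 in M4, against 3742.5, 2586.3 and 3202.3 in WT (-3.20). Apob and Hc were low on all 3 M4 arrays, most of all on replicates 2 and 3. Lrrc58 had 179.1, 14.1 and 13.4 in M4, against 446.4, 345.7 and 239 in WT (-2.65). Ubxn2a, a protein of the p97 segregase pathway, fell by 2.47, Wasl, an activator of actin nucleation, by 2.61 (with 1 of its 3 other probe sets called higher), and Cfhr2, a complement factor H-related gene, by 2.37. With M4 replicate 1 as the only M4 array, Malat1, Lrrc58 and Cfhr2 were not called (adjusted p = 0.0875, 0.136 and 0.117), while Apob, Hc, Tmed5, Wasl and Ubxn2a were. One gene rose with the same split. Gstp3, a glutathione transferase, had 222.4, 3067.4 and 3398.3 in M4, against 97.4, 217 and 155.3 in WT, and its call (adjusted p = 0.044) was lost under 12 of the 17 alternatives run for it.

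Of the 8 measured nuclear-retained or long noncoding RNAs listed, 4 fell and 0 rose, beside 9.48% and 14.6% of all genes, with a median difference of -0.86. Besides Malat1 and Neat1, these were the snoRNA host genes Snhg1, at 57, 23.5 and 20.4 in M4 against 111.1, 130.7 and 76.4 in WT, and Gas5, at 612.9, 313.4 and 275.1 in M4 against 653.9, 632.1 and 790.3 in WT. With M4 replicate 1 as the only M4 array, 0 of the 8 were lower and 1 was higher.

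Genes of cholesterol synthesis rose. The pathway builds cholesterol from acetyl-CoA through mevalonate, squalene and lanosterol, and its genes are switched on together by the SREBP2 factor when ER cholesterol is low. Of 20 measured members, 11 rose and 1 fell, beside 14.6% and 9.48% of all genes, with a median difference of 0.74. The medians on M4 replicates 1, 2 and 3 were 0.68, 0.77 and 0.87, although single members differed between the arrays. Early in the pathway, the mevalonate kinase gene Mvk had signals of 208.4, 226.9 and 294.6 in M4 livers, against 132.2, 140.3 and 101.5 in WT livers (log2 difference 0.88, SE 0.26, adjusted p = 0.025). Mvd, which makes isopentenyl diphosphate, had 229.2, 225.8 and 237.1 in M4, against 45, 90.1 and 130.7 in WT (1.33, SE 0.31, adjusted p = 0.00786). The farnesyl diphosphate synthase gene Fdps and the squalene synthase gene Fdft1 rose by 1.07 and 0.79. M4 arrays were close to each other in Mvd, and the spread was on the WT side.

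The later steps moved in the same direction. Sqle, the squalene epoxidase gene and a control point of the sterol branch, had signals of 842.5, 1021.9 and 879.8 in M4 livers, against 147.8, 266.5 and 349.4 in WT livers (log2 difference 1.85, SE 0.30, adjusted p = 0.00108). Msmo1, a sterol methyl oxidase, had 3102.3, 2224.7 and 2273.2 in M4, against 887.4, 989.6 and 966.1 in WT (1.39). Hsd17b7, a reductase of the C4 demethylation step, had 516.7, 370.4 and 270.2 in M4, against 114.5, 127.1 and 145.5 in WT (1.43, adjusted p = 6.71e-04), with replicate 1 the highest. No M4 array overlapped with WT in these genes. The other sterol genes called higher were Nsdhl (1.07), Cyp51 (0.95), Lss (0.69) and Pmvk (0.70), the last a kinase of the mevalonate part. Tm7sf2, a sterol reductase, was the member that fell, at 657.7, 613.3 and 942.8 in M4 against 979.4, 1195 and 916 in WT (-0.49, adjusted p = 0.0374), with overlapping groups. Hmgcs1, which forms HMG-CoA, had 3764.2, 1354.2 and 1514.2 in M4 and 898.5, 2129.8 and 2674.7 in WT (0.20, adjusted p = 0.805), and Idi1 and Sc5d were likewise scattered. The regulator genes Srebf2 (0.46, adjusted p = 0.132) and Scap (0.38, adjusted p = 0.165) were not called. With M4 replicate 3 as the only M4 array 6 members were higher and 0 lower, and with M4 replicate 1 alone 2 were higher and 1 lower. In a fit of M4 and WT alone 5 were higher.

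**Figure D3:**
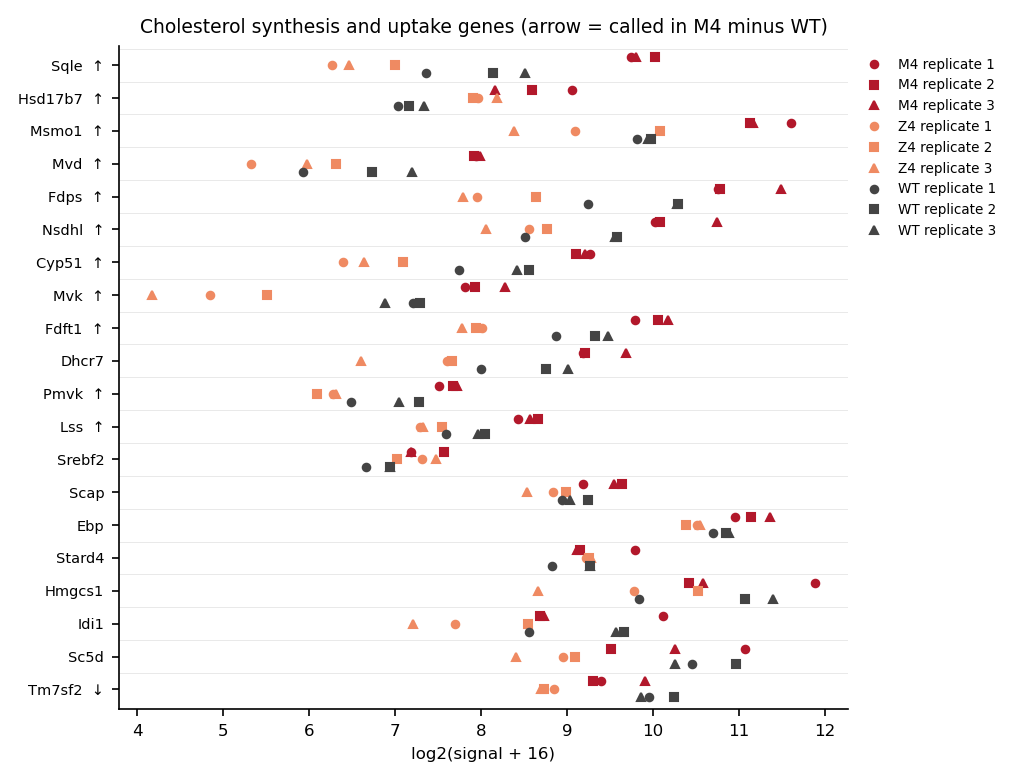
Signals of the 20 measured cholesterol genes as log2(signal + 16) on the horizontal axis, with 3 M4 arrays in red above 3 Z4 arrays in orange and 3 WT arrays in black for each gene, and an arrow where M4 minus WT was called. M4 points lie to the right of all WT points in 14 genes, and all Z4 points lie left of all M4 points in 16 genes.

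Against Z4, in which the mutant form was on, 14 of the 20 cholesterol genes were higher and 0 lower in M4 livers, with a median difference of 1.44, beside 1.48% and 3.68% of all genes called higher and lower in M4 minus Z4 (median over all genes 0.03). The comparison shares the M4 arrays with that against WT. Sqle averaged 915 ± 94.7 in M4 and 81.9 ± 26.8 in Z4 (SD, n = 3 each, log2 difference 3.28, adjusted p = 7.61e-05 by limma). Mvk averaged 243.3 ± 45.4 in M4 and 14.8 ± 13.9 in Z4 (SD, n = 3 each, 3.16, adjusted p = 4.97e-05 by limma). Against M1, the same line with the transgene off, 5 of the 20 were higher and 2 lower in M4 (median 0.32), beside 38.1% and 12.5% of all genes (median over all genes 0.29).

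ER chaperones and folding enzymes were more often lower than higher in M4 livers. Of 36 measured, 11 fell and 1 rose, beside 9.48% and 14.6% of all genes, with a median difference of -0.35. In a fit of M4 and WT alone 5 were lower and 0 higher. Among the disulphide isomerases, Pdia3 had signals of 779.5, 689 and 978.5 in M4 livers, against 1954.3, 2546 and 2611.4 in WT livers (log2 difference -1.52, SE 0.16, adjusted p = 1.12e-04). Pdia4 had 277.4, 286 and 218 in M4, against 517.8, 719 and 773.5 in WT (-1.30, adjusted p = 5.13e-04). Pdia6 was not called (0.39, adjusted p = 0.246). Pdia3 and Pdia4 were low on each M4 array and passed with replicate 3 alone and with replicate 1 alone. The lectin chaperone Canx, which binds monoglucosylated glycoproteins, had 990.1, 833.2 and 978.2 in M4, against 1500, 1856.5 and 1748.6 in WT (-0.85, SE 0.14, adjusted p = 0.00113). Its soluble relative Calr was not called (-0.04, adjusted p = 0.898). Ganab, the catalytic subunit of glucosidase II, was the member that rose (0.45, adjusted p = 0.0192).

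Chaperones of the Hsp70, Hsp90 and J-protein families were among those called lower. Hspa5, the ER Hsp70 known as BiP, had signals of 2594.6, 2134 and 2886.3 in M4 livers, against 2835.2, 5459.9 and 7010 in WT livers (log2 difference -0.92, SE 0.29, adjusted p = 0.0321). WT replicate 1 was inside the M4 range, and Hspa5 was no longer called under quantile normalization (adjusted p = 0.101) or with 1 M4 array (adjusted p = 0.278 with replicate 3 alone and 0.206 with replicate 1 alone). Hsp90b1, the ER Hsp90, had 1077.2, 691.8 and 812.1 in M4, against 1326.1, 1814.6 and 1963.5 in WT (-0.97). Dnajc3, a J-protein that also restrains the kinase PERK, had 536.7, 129.2 and 84.8 in M4, against 643.4, 764.8 and 798.6 in WT (-1.90), with replicates 2 and 3 much lower than replicate 1. Sdf2l1, a partner of the ER J-proteins, had 90.4, 111.3 and 115.6 in M4, against 200.1, 703.6 and 965.4 in WT (-2.14, SE 0.43, adjusted p = 0.00339). WT replicate 1 was the lowest WT array in Hspa5, Sdf2l1, Manf and Creld2. Creld2, an ER stress-induced gene, had 237.1, 270 and 331.1 in M4, against 196.4, 1030.7 and 1730 in WT, and was not called (adjusted p = 0.187). The remaining members called lower were Erp44 (-0.69), Ppib (-0.68), Fkbp2 (-0.45) and Manf (-0.90). With M4 replicate 3 as the only M4 array 6 of the 36 were lower and 3 higher, and with M4 replicate 1 alone 7 were lower and 0 higher. Against Z4, 2 members were lower and 0 higher (median -0.01), beside 3.68% and 1.48% of all genes in M4 minus Z4. Against M1, 15 were lower and 1 higher (median -0.19), beside 12.5% and 38.1% of all genes in M4 minus M1.

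Many genes of this list carry the ER stress response element (ERSE) before their start, at which ATF6 with NF-Y is known to bind. Searched as CCAAT and CCACG with 9 bases between them, on both strands of RefSeq promoter windows of 250 bases before to 50 after the start (GRCm38.p6), it was found in 8 of 32 ER genes with a window (25%) and in 37 of 27025 genes (0.137%). The 8 were Calr, Canx, Creld2, Dnajc3, Ero1b, Hsp90b1, Hspa5 and Pdia6, of which 4 were called lower. The 150 bases before the start are shown for those 4, which fell, and then for Pdia6, which holds the same element and was not called. Capitals mark the element with the bases inside it.
Hspa5, chr2:34771940-34772089, plus strand: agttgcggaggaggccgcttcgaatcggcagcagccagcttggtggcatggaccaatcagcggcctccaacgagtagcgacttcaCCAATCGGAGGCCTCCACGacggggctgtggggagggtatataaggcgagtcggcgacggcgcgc
Hsp90b1, chr10:86705445-86705594, minus strand: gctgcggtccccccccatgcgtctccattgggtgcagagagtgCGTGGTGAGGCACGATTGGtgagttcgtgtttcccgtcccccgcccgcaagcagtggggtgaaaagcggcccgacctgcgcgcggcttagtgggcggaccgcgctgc
Canx, chr11:50325674-50325823, minus strand: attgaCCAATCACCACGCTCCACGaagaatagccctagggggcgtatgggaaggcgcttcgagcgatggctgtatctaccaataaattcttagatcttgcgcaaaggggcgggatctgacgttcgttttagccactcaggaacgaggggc
Dnajc3, chr14:118937782-118937931, plus strand: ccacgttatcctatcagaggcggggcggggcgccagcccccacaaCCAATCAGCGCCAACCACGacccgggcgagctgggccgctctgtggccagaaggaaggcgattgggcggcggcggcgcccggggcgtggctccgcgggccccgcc
Pdia6, chr12:17266439-17266588, plus strand: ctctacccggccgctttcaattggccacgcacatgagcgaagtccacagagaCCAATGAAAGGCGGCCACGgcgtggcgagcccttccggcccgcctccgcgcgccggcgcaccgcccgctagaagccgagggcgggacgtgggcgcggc
The element lies 65 bases before the start of Hspa5, 145 before that of Canx, 105 before that of Dnajc3 and 98 before that of Pdia6, read on the gene's strand, and 107 before that of Hsp90b1 on the opposite strand. Hsp90b1 has another match 212 bases before its start on its own strand, outside the bases shown. The match is a description of the letters and no measure of binding.

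Of 24 measured sensors and effectors of the unfolded protein response, 2 rose and 2 fell, beside 14.6% and 9.48% of all genes, with a median difference of -0.02. Xbp1, the factor spliced by IRE1, had signals of 2464, 2825.5 and 3416 in M4 livers, against 3122.8, 3488.1 and 2431.9 in WT livers (log2 difference -0.05, adjusted p = 0.85). Ddit3, the factor CHOP, had 47.3, 68.9 and 59.3 in M4, against 82.3, 95.3 and 85.5 in WT, which did not overlap and was not called (-0.49, adjusted p = 0.0549). Dnajb9, an ER J-protein induced by this response, had 978, 658.1 and 857.4 in M4 and 703.1, 1369.5 and 1282.2 in WT (-0.38, adjusted p = 0.369). The eIF2 phosphatase subunit genes differed, Ppp1r15b being lower (-0.86, adjusted p = 0.00498, with its 1 other probe set called higher) and Ppp1r15a higher (0.68, adjusted p = 0.0225). In ER-associated degradation 3 of 27 genes rose and 5 fell. The ubiquitin ligase gene Rnf5 had 748.2, 792.4 and 742 in M4, against 473.2, 407.6 and 406 in WT (0.81), and Sel1l, the adaptor of the Hrd1 ligase, rose by 0.65. Edem3, a mannosidase that marks glycoproteins for removal, had 271.7, 50.9 and 51.7 in M4, against 362.5, 491.4 and 456.1 in WT (-2.04), the split seen in Tmed5.

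In ER translocation and vesicle transport, 7 of 50 genes rose and 12 fell, beside 14.6% and 9.48% of all genes. The share that rose was near that of all genes. Sec63, a J-protein of the translocon, had signals of 204.7, 160.1 and 233.7 in M4 livers, against 433.5, 475.9 and 497.3 in WT livers (log2 difference -1.18, SE 0.14, adjusted p = 1.87e-04). Kdelr2, which returns ER residents from the Golgi, had 565.7, 691.2 and 743.9 in M4, against 1252.7, 1424.6 and 1301.4 in WT (-0.98). Lman2, a lectin of the early secretory pathway, was higher, at 834.3, 850.2 and 951.9 in M4 against 434.7, 502.9 and 482.6 in WT (0.87). These 3 genes were alike on the M4 arrays, whereas Ergic2 (-1.87) and the signal recognition particle gene Srp9 (-1.44) were lowest on replicates 2 and 3.

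Genes of plasma proteins read lower in M4 livers, and for the brightest of them the scaling decides the call. The counts stand beside 9.48% of all genes called lower and 14.6% higher. Of 31 acute phase genes 15 fell and 1 rose (median -0.42), of 37 complement and coagulation genes 19 fell and 0 rose (median -0.47), and of 17 serpins 5 fell and 1 rose (median 0.04). After quantile normalization, which gives all arrays 1 distribution, the lower calls numbered 3, 10 and 0. Of all 12393 genes, 1202 were lower and 1411 higher under that scaling. Against M1, 6, 16 and 0 were lower and 5, 2 and 2 higher, beside 12.5% and 38.1% of all genes in M4 minus M1. Albumin, Alb, had signals of 9160, 6729.3 and 7505 in M4 livers, against 12758.3, 13392.2 and 15836.6 in WT livers (log2 difference -0.85, adjusted p = 0.00107, but 0.72 after quantile normalization). The mouse alpha1-antitrypsin genes behaved likewise. Serpina1c had 9623.2, 7732 and 9168.3 in M4, against 14864.5, 15944.7 and 20064.3 in WT (-0.93, adjusted p = 5.70e-04, but 0.785 after quantile normalization). Serpina1b had 9216.9, 7537.8 and 7789.6 in M4, against 11713.1, 12348.5 and 15180.4 in WT (-0.67, but 0.11 after quantile normalization). A probe set shared by Serpina1b, Serpina1c and Serpina1e had 636.9, 803.4 and 1254.5 in M4, against 1783.6, 1999.6 and 1996.7 in WT, and one shared by Serpina1a and Serpina1d had 3276, 4261.2 and 4770, against 7342.8, 7694.2 and 7946. The Serpina1 genes are near-identical copies, so a probe set can read several of them. A second Serpina1b probe set had 7302.7, 6456.1 and 7562 in M4, against 12271.2, 12221.5 and 14655.5 in WT. On the deposited scale all 5 Serpina1 probe sets were lower on each M4 array than on each WT array. M1 arrays, with the transgene off, differed by probe set. The first Serpina1b probe set had 7537.6, 8152.7 and 8401.5 in M1, near M4. The one shared by Serpina1a and Serpina1d had 7000.6, 7779.6 and 8399.6 in M1, near WT.

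The share of lower calls varied with signal. Of 74 genes with a mean signal over 5000, a limit set after the values were seen, 59 were called lower and 0 higher, with a median difference of -0.59, and after quantile normalization 3 were lower and 1 higher, with a median of -0.03. Below a signal of 100, 929 of 7603 genes were higher and 369 lower, and after quantile normalization 635 and 458. Of 12 hepatocyte marker genes 10 fell (median -0.67), beside 9.48% of all genes. Their summed signal was 72650 to 85172 in M4 and 121259 to 145480 in WT. After quantile normalization 0 of the 12 were called, beside 2613 of all 12393 genes. Against M1, 2 of the 12 were lower and 0 higher, beside 12.5% and 38.1% of all genes in M4 minus M1. In a bulk sample, fewer hepatocytes, less of these RNAs per cell and the scaling of the arrays cannot be told apart.

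Some plasma protein genes were lower under both scalings. Orm1, an acute phase glycoprotein, had signals of 2091.6, 2116.7 and 2669.3 in M4 livers, against 4797.8, 3833.3 and 4085.7 in WT livers (log2 difference -0.88, SE 0.13, adjusted p = 6.80e-04, and 0.00435 after quantile normalization). C9, of the membrane attack complex, had 2741.7, 1627.1 and 4124.9 in M4, against 9092.2, 6532.1 and 7015.7 in WT (-1.49, adjusted p = 0.00148, and 0.0103 after quantile normalization). Klkb1, plasma prekallikrein, fell by 0.99 and C8g, a lipocalin of complement component 8, by 0.68. The acute phase gene that rose was Il1rn, the antagonist of the interleukin 1 receptor, at 168.9, 150.4 and 117.6 in M4 against 31.3, 48.1 and 53.9 in WT (1.43, SE 0.19, adjusted p = 4.06e-04). Of 30 apolipoprotein and lipoprotein assembly genes 8 fell and 3 rose, beside 9.48% and 14.6% of all genes. After quantile normalization 2 fell and 4 rose, beside 1202 and 1411 of all genes. Apoa1 (-0.81), Apoa2 (-0.84), Apoc3 (-0.81) and Ttr (-0.62) were called lower as deposited, and after quantile normalization Apoa1, Apoa2 and Ttr turned to 0.14, 0.10 and 0.18 and Apoc3 was no longer called (-0.09, adjusted p = 0.586). Apob was still called lower after it (adjusted p = 5.33e-04). Tm6sf2, a gene of lipoprotein lipidation, had 288.6, 453.1 and 195.3 in M4, against 103, 113.4 and 102.8 in WT (1.35, adjusted p = 0.00173).

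Of 44 cytosolic ribosomal protein genes 14 fell and 0 rose (median difference -0.30), beside 9.48% and 14.6% of all genes. After quantile normalization 9 of the 44 fell and 3 rose, beside 1202 and 1411 of all genes. Fau, whose product carries ribosomal protein eS30, had signals of 1489.5, 1605.7 and 1631.4 in M4 livers, against 3284.9, 3113.3 and 3235.6 in WT livers (log2 difference -1.02, SE 0.12, adjusted p = 1.81e-04). Rps20 fell by 0.94 and Rpl4 by 0.74. Of 72 nuclear-encoded respiratory chain genes 21 fell and 3 rose (median -0.25), and after quantile normalization 13 fell and 7 rose. Ndufa13, of complex I, had 1600.4, 1793.2 and 2016.9 in M4, against 3369.6, 3745.6 and 3884.8 in WT (-1.02, adjusted p = 6.00e-04). Sod1, the cytosolic superoxide dismutase, had 1735.1, 1530.8 and 2340.5 in M4, against 4652.4, 4529.3 and 4463.2 in WT (-1.30, SE 0.15, adjusted p = 1.87e-04), within a list of 32 antioxidant genes of which 4 rose and 5 fell. Of 74 mitochondrial ribosomal protein genes 8 were higher and 9 lower.

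Cytosolic heat shock genes were mostly lower where called, with 9 of 29 lower and 1 higher (median -0.23), beside 9.48% and 14.6% of all genes. Hsp90aa1, the stress-inducible cytosolic Hsp90, had signals of 869.3, 552.6 and 657.5 in M4 livers, against 1151.3, 2249.5 and 1795.8 in WT livers (log2 difference -1.27, SE 0.27, adjusted p = 0.00477). The cochaperone genes Bag1 (-0.76), Dnaja1 (-0.76) and Dnajb6 (-0.67) were also lower. Against Z4, 4 of the 29 were lower and 0 higher in M4 (median -0.11), beside 3.68% and 1.48% of all genes in M4 minus Z4. Of 37 autophagy and lysosome genes 11 were higher and 2 lower, beside 14.6% and 9.48% of all genes, and their median of 0.09 was near the 0.08 of all genes. In a fit of M4 and WT alone 4 were higher and 0 lower. Npc2, which hands cholesterol out of the lysosome, had 1311.2, 1567.3 and 1314.8 in M4, against 463.9, 496.5 and 542.1 in WT (1.45, SE 0.16, adjusted p = 1.68e-04). The lysosomal hydrolase genes Hexa (0.95), Ctsd (0.81) and Ctsl (0.83) and the autophagy gene Atg7 (0.76) rose as well. With M4 replicate 1 as the only M4 array 2 of the 37 were higher and 2 lower, and with replicate 3 alone 8 were higher and 3 lower. Of 42 proteasome subunit genes 6 were higher and 5 lower, shares near those of all genes, among them Psmd1 higher (0.66) and Psmc1 lower (-0.80).

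**Figure D4:**
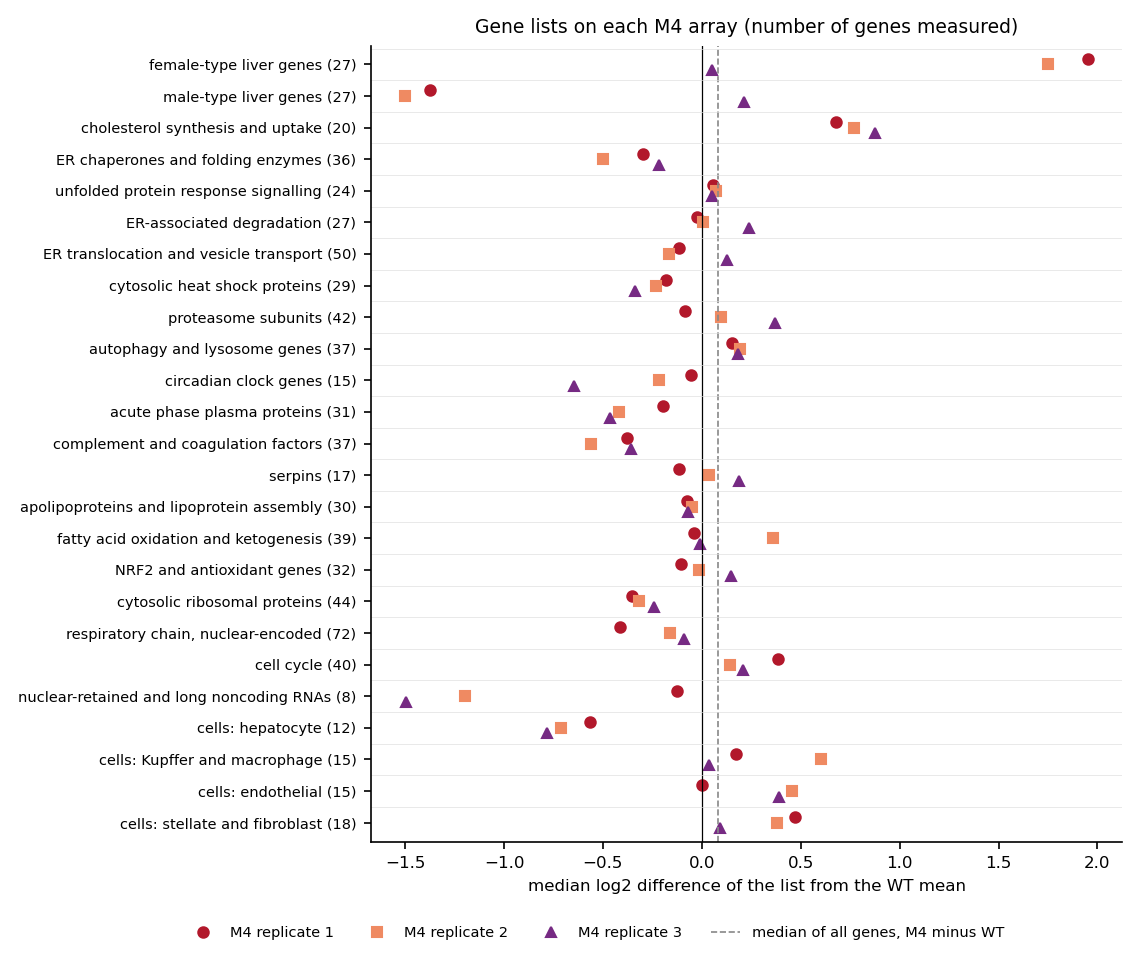
Median log2 difference from the WT mean (horizontal axis) of 25 gene lists on each M4 array, with circles for replicate 1, squares for replicate 2, triangles for replicate 3, a dashed line at the median of all genes (0.08) and the number of measured genes in brackets. Replicate 3 lies apart in the female-type and male-type lists, replicate 1 in the noncoding RNAs, and the cholesterol list lies above 0.6 on all 3 arrays.

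Drug and steroid metabolism genes changed in both directions, beside 14.6% of all genes called higher and 9.48% lower. Of 39 cytochrome P450 genes of families 1 to 4, 9 rose and 11 fell (median 0.23). After quantile normalization 11 rose and 4 fell, beside 1411 and 1202 of all genes. In a fit of M4 and WT alone 2 rose and 5 fell, beside 629 and 308 of all genes. The medians of the 39 on M4 replicates 1, 2 and 3 were 0.15, 0.31 and 0.0005. Cyp2c38 and Cyp2f2 are also in the female-type or male-type lists. So are Gstt3, Gstp1 and Ugt2b1 of the conjugating enzymes and Slco1a1 of the bile acid genes. The part of sex in these counts was not tested. Cyp4v3, a fatty acid hydroxylase, had signals of 1608, 1776.1 and 2982 in M4 livers, against 4435.3, 4424.9 and 4601.5 in WT livers (log2 difference -1.13, SE 0.18, adjusted p = 0.00108). The bright ethanol-inducible gene Cyp2e1 was called lower as deposited (-0.61) but not after quantile normalization (0.05). Of 38 conjugating enzymes 10 rose and 8 fell, among them Gsto1, an omega-class glutathione transferase, at 755.8, 1351.2 and 1044.1 in M4 against 487.5, 396.5 and 422.2 in WT (1.21, adjusted p = 0.00158). Of 26 bile acid genes 2 rose and 7 fell, and after quantile normalization 2 fell. Abcc2, the canalicular exporter of conjugated anions, had 202.4, 275.4 and 210 in M4, against 108.4, 112 and 95.4 in WT (1.01, adjusted p = 0.0108).

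Counts in lipid and glucose metabolism stand beside 14.6% of all genes called higher and 9.48% lower. In lipid metabolism, 8 of 39 fatty acid oxidation genes rose and 2 fell, with Pex19 (0.98) and Pex11a (1.08) of peroxisome assembly and division leading. The medians of the 39 on M4 replicates 1, 2 and 3 were -0.04, 0.36 and -0.01, so that the list was raised on replicate 2 only. In a fit of M4 and WT alone 3 of the 39 rose and 1 fell, beside 629 and 308 of all genes. Ppara, the nuclear receptor that drives this pathway, had signals of 843.4, 999.2 and 743.3 in M4 livers, against 517.7, 374.3 and 503.9 in WT livers (log2 difference 0.87, SE 0.18, adjusted p = 0.00384). Scd1, the stearoyl-CoA desaturase, had 2398.4, 1547.8 and 3101.2 in M4, against 5899.7, 7066.7 and 5499.9 in WT (-1.43, adjusted p = 0.00423), in a list of 22 fatty acid synthesis genes of which 2 rose and 2 fell. Of 27 triglyceride genes 4 rose, near the share of all genes, and 1 fell. The final acyltransferase genes Dgat1 (0.86) and Dgat2 (0.48) were among those that rose. Of 29 genes of glucose handling 3 rose and 3 fell, with the gluconeogenic enzyme gene Pck1 lower (-0.62, adjusted p = 0.0219, and 0.13 after quantile normalization), while its 1 other probe set was called higher.

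In the growth hormone and IGF axis 5 of 23 genes rose and 1 fell, beside 14.6% and 9.48% of all genes. Ghr, the growth hormone receptor, had signals of 2670.9, 458.9 and 721.5 in M4 livers, against 4297.9, 3965.8 and 3346.5 in WT livers (log2 difference -1.98, SE 0.42, adjusted p = 0.00508), lowest on replicates 2 and 3. Igfals, the acid-labile subunit that carries IGF1 in plasma, had 872, 745.6 and 750 in M4, against 356.7, 385.4 and 417.2 in WT (1.00, SE 0.17, adjusted p = 0.00162). Igf1 itself was higher (0.45, adjusted p = 0.034, with 1 of its 2 other probe sets called lower), as was Socs2, an inhibitor of growth hormone signalling (1.01, adjusted p = 0.0355). Of 15 clock genes 2 rose and 5 fell. Nr1d1, the repressor REV-ERB alpha, had 255.6, 133.9 and 285.4 in M4, against 56.2, 50.9 and 108.8 in WT (1.45, adjusted p = 0.0104), whereas its paralogue Nr1d2 was lower (-1.67, adjusted p = 0.0183) through replicates 2 and 3, at 628.4, 126 and 97.6 against 763.1, 655.5 and 617.8. Rora, the activator at the same sites, fell by 1.47 and Per1 by 0.91. Rgs16, a regulator of G protein signalling, had 18.7, 62.8 and 9.7 in M4, against 35.1, 57.5 and 114 in WT (-0.93, adjusted p = 0.134), with overlapping groups and both of its 2 other probe sets called lower.

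Counts in the inflammatory and growth-related lists stand beside 14.6% of all genes called higher and 9.48% lower. Of 34 interferon-response genes 2 rose and 0 fell, and of 27 NF-kB genes 2 rose and 2 fell. Tnfrsf1a, the main receptor for tumour necrosis factor, had signals of 570.3, 834.8 and 761.4 in M4 livers, against 313.5, 198.6 and 253.7 in WT livers (log2 difference 1.45, SE 0.18, adjusted p = 3.12e-04). The chemokine gene Cxcl1 had 125.8, 188.9 and 103.8 in M4, against 153.8, 850.7 and 1024 in WT (-1.82, adjusted p = 0.0338), with WT replicate 1 inside the M4 range. Of 31 immediate early genes 3 rose and 3 fell, among them Dusp6, a phosphatase that switches off ERK, at 62, 110 and 58.5 in M4 against 311, 254.1 and 162.1 in WT (-1.48). Of 40 cell cycle genes 7 rose and 1 fell, at low signals. Mcm3, of the replicative helicase, had 61.9, 42.4 and 24.4 in M4, against 8.7, 14.4 and 4.7 in WT (1.19, adjusted p = 0.00378). With M4 replicate 3 as the only M4 array 0 of the 40 were higher and 2 lower. Of 36 cytoskeleton genes 2 rose and 5 fell, with Actn4, an actin cross-linker, higher (1.01) and Rdx (-1.14) and Capza2 (-1.50) lower beside Pfn1.

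Markers of stellate, endothelial and Kupffer cells that were called were higher in M4 livers, beside 14.6% of all genes called higher, a share that the endothelial and Kupffer cell counts lie near. Of 18 stellate cell and fibroblast markers 5 rose and 0 fell, with a summed signal of 2624.8 to 3744.7 in M4 and 2207.2 to 2292.9 in WT. The medians of the 18 markers on M4 replicates 1, 2 and 3 were 0.47, 0.38 and 0.09. Sparc, a matrix glycoprotein, had signals of 411.9, 607.9 and 481.8 in M4 livers, against 164.1, 190.9 and 197.5 in WT livers (log2 difference 1.35, SE 0.18, adjusted p = 4.09e-04). Of 15 endothelial markers 3 rose and 0 fell, with summed signals of 2321.8 to 2967.8 in M4 and 1711.5 to 2222.3 in WT. Of 15 Kupffer cell markers 2 rose and 0 fell, with overlapping sums of 3712.8 to 4490.7 in M4 and 2761.2 to 4377 in WT, and the macrophage gene Cd14 rose by 1.04. T and NK cell markers summed to 258.5 to 285.4 in M4 and 149.7 to 225.2 in WT, with 3 of 12 called higher at low signals. Against Z4, 4 of 15 Kupffer cell markers and 4 of 9 dendritic cell and MHC class II markers were higher in M4. Of all genes 1.48% were called higher in M4 minus Z4. The 640 genes called in that comparison became 18 in a fit of M4 and Z4 alone. Between M4 and WT, no marker of cholangiocytes, neutrophils, erythroid cells, dendritic cells or exocrine pancreas was called. Of 11 kidney and adrenal markers 3 rose and 0 fell, with summed signals of 456.6 to 554.6 in M4 and 275.3 to 325.2 in WT. The part of these cells in the results above was not tested.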

How the data were processed

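RNA of 1 liver per array was measured on Affymetrix mouse arrays. The deposited values are linear probe-set intensities scaled by the authors. The submitters' processing notes name RMA, which gives log2 values, yet the deposited intensities are linear, run from 0 to 22995.4 and have a 2% trimmed mean of 150.06 to 150.08 on every array; how they were made is not settled by the sources used here, which give no genome build. Of 22690 probe sets, 64 were controls, 20380 named 1 gene, 691 several and 1555 none. The brightest probe set stood for each of 12393 genes. Values were taken as log2(signal + 16) and fitted with limma 3.58.1 in R 4.3.3 (lmFit and eBayes, 5 group means, Benjamini-Hochberg adjustment over all genes). On simulated data the fit recovered 26% of changes of 0.585 and 96% of changes of 2 log2 units. The simulation gave each gene the same spread in all groups and changed a small part of the genes. In the data M4 varied more, with 179 genes spread over more than 2 log2 units against 31 in WT. The recovered shares may therefore not hold for M4 minus WT. Alternatives were quantile normalization, other constants, a dim-gene filter, all probe sets, M4 with its comparison group alone, array weights, a robust trend, the replicate number as a block and fits without arrays. Named genes were the 12 largest called and non-overlapping changes each way, the 8 each way with M4 arrays within 0.5 log2 units at a signal of 100 or more, the 8 with the widest M4 spread, up to 5 called (or 2 uncalled) genes per list, and fixed names. Further members of the cholesterol, ER, transport and male-type lists were named after their values were seen. The gene lists and comparisons were chosen with earlier results of these data known. No pairing of the arrays by replicate number was seen (no correlation of deviations between same-numbered arrays was over 0.1).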

Additional observations from a re-analysis of the deposited data

Results flagged for a closer look

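For 10 of the 36 genes with the largest or most even M4 changes, the changes from WT in M4 and in Z4 differed by a direct test of M4 minus Z4 (limma, adjusted p under 0.05), beside 1.48% of all genes higher and 3.68% lower in M4. The 36 were chosen for their values on the same M4 arrays, so the count supports nothing about them as a group. Sqle was 3.28 log2 units higher in M4 than in Z4, Cyp2c38 2.52 higher and Anxa5 1.81 higher. The differences of M4 minus Z4 were -2.87 for Slco1a1, -2.52 for Lrrc58, -2.50 for Eif2s3y, -2.30 for Nox4, -1.88 for Ubxn2a, -1.56 for Apob and -1.18 for Wasl. A signal outside the gene measurements was that of the 18S ribosomal RNA control at the 5' end, with a mean of 2239.7 in M4, against 195.8 in WT. Its part in the gene differences was not tested.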

How the results depend on the processing

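The count of 2987 genes called between M4 and WT (1812 higher, 1175 lower) became 937 (629 and 308) with these groups alone, and 4681 (2745 and 1936) over all probe sets, of which more were tested. With the constant 1 the higher genes numbered 1162. With 1 M4 array there were 946 higher genes for replicate 3, 1179 called (750 higher, 429 lower) for replicate 1 and 1106 higher for replicate 2, the last a fit chosen after seeing the data. Leaving out 1 M4 or WT array gave 1935 to 3174 genes (1188 to 1715 higher, 747 to 1459 lower), the lowest without M4 replicate 2. For M4 minus Z4 the 640 genes became 18 with these groups alone, 970 over all probe sets, 127 with the constant 1, 1849 with array weights, 1269, 1154 and 69 with M4 replicate 3, 2 or 1 alone, and 75 to 1664 without 1 M4 or Z4 array. For M4 minus M1 the 6263 genes became 4172 above the 40th percentile of signal and 9551 over all probe sets, and 5381 to 6168 without 1 M4 or M1 array. With the replicate number as a block 2765 genes were called (1680 higher, 1085 lower), 467 for M4 minus Z4 and 6111 for M4 minus M1. Deviations of same-numbered M4 and WT arrays correlated at 0.0192, -0.0164 and 0.0567. These values show no pairing by number, but 3 arrays a group cannot exclude it. Among the 230 genes named by rule, those that were called and changed sign were, under quantile normalization, Apoa1 (0.14), Apoa2 (0.10), Cyp2e1 (0.0532), Gpx1 (0.10), Serpina1b (0.11) and Ttr (0.18), with M4 replicate 3 alone Cyp4a14 (-0.50), Hao2 (-0.43), Hsd3b5 (0.41) and Sult3a1 (-0.28), and with M4 replicate 1 alone Nkg7 (-0.0036). The causes were not tested. Of the 36 genes with the largest or most even changes, 35 were still called under quantile normalization, 28 with the 2 groups alone, 25 with M4 replicate 3 alone and 28 with M4 replicate 1 alone. Groups of 3 limit the precision, and dim genes lie near the constant.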
